A study of Oncorhynchus mykiss with 9 samples.

Results

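Pre-mRNA splicing factor genes of rainbow trout (Oncorhynchus mykiss) were followed in liver. Members were chosen by name: SR proteins (srsf), hnRNPs (hnrnp), snRNP proteins (snrp, snrnp), SF3A and SF3B subunits, PRPF proteins, U2AF subunits, the SR-protein kinases (clk, srpk), tra2a, tra2b, rbm25, rbm39 and luc7l, and genes whose product is described as a U2 snRNP protein. The rule found 202 of 42127 genes. Of these, 159 averaged 1 FPKM or more across the 9 libraries and were tested among 13803 genes, and 43 lay below that level, 3 of them at 0 in all libraries. Total RNA of wild-type liver had been sequenced in 3 libraries each of acute hypoxia (oxygen shortage), moderate hypoxia and control. A duration of 12 h is stated, but it is unclear whether it applies to one or both treatments, and the sources used here give no oxygen level. Whether the 3 libraries of a group are 3 different fish is not stated, so p-values here measure the spread between libraries, which may be technical.

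Splicing removes introns from pre-mRNA in the spliceosome, a machine built from small nuclear ribonucleoproteins (snRNPs). U1 binds the start of an intron, U2AF recognises its end and brings in U2, whose SF3A and SF3B proteins hold the branch point, and the U4/U6.U5 particle with its PRPF proteins then joins for catalysis. A ring of Sm proteins forms the core of most of these particles. SR proteins mostly promote the use of exons and splice sites, hnRNPs often oppose it, and the SRPK and CLK kinases phosphorylate SR proteins in the cytoplasm and in the nucleus. In mammals, transcripts of many SR protein and CLK genes also exist as forms with retained introns or poison exons that yield no full-length protein; the deposited values are 1 per gene and do not tell such forms apart.

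Levels are in FPKM (fragments corrected for transcript length and for library size), which allows different genes to be compared, while the read totals behind them are not known and counting error cannot be computed. Splicing factor genes were modestly expressed in control liver: the median of the 159 tested members was 3.13 FPKM, against 2.66 FPKM for all tested genes, 120 members lay under 5 FPKM and 13 at 10 FPKM or more. The most abundant was a gene without a symbol (ncbi_110500625) described as U2 snRNP A′, a protein that binds U2 RNA, with 52.7, 60.3 and 52.3 FPKM in control libraries. HNRNPL (ncbi_110507580), a splicing regulator that binds CA-rich RNA, had 37.2, 35.0 and 33.0 FPKM in control libraries. Next came snrpb, a Sm core protein, with a control mean of 27.2 ± 1.11 FPKM, and an SRSF7 gene (ncbi_110493794), an SR protein, with 26.7 ± 2.59 FPKM (SD, n = 3 each). The FPKM of all 202 members summed to 709 to 760 in acute hypoxia, 927 to 1050 in moderate hypoxia and 792 to 859 in control.

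The trout genome carries most of these genes in several copies. The 202 members fell into 77 families by symbol, 65 of them with at least 2 members, and hnrnpr, srsf7 and u2af2 were the largest with 6 members each. How the authors counted reads shared by near-identical copies is not given in the sources used here, so the split of a family's signal between its copies is uncertain. Family sums are given below for clk2, clk4, sf3b1, srpk1, srsf7 and srsf10 only. Symbols and product descriptions disagree for some members: an SRSF4 gene is described as SRSF6, a Srpk1 gene (ncbi_110532780) as kinase 3 of the family and a TRA2B gene (ncbi_110495758) as TRA2 alpha. The libraries themselves differed in breadth, with 12724 to 13098 genes at 1 FPKM or more in acute hypoxia, 14196 to 15166 in moderate hypoxia and 13078 to 13491 in control, at depths of 0.946 to 1.29 relative to the first control library. The median log2 difference of all tested genes was -0.05 in acute hypoxia against control, 0.15 in moderate hypoxia against control and -0.21 in acute against moderate hypoxia. All log2 differences below are relative to that median and stand with their standard error, and the adjusted p beside them is limma's for the unshifted difference (Benjamini-Hochberg over all tested genes, called when under 0.05). Because the shift decides many calls in moderate hypoxia, calls were also made after median-of-ratios and after quantile scaling, and "rose" and "fell" are kept for members called under all 3 scalings. In bulk tissue, fewer cells of a type and less RNA per cell cannot be told apart.

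The first question was which splicing factor genes differ between moderate hypoxia and control. On the deposited values 46 members (28.9% of those tested) were higher and 10 (6.29%) lower, where 24.3% and 5.02% of all tested genes were called higher and lower. After median-of-ratios scaling the split was 26 higher and 29 lower, beside 11.4% and 15.3% of all genes, and after quantile scaling 26 higher and 21 lower, beside 12.6% and 10.7%. Under all 3 scalings 25 members (15.7%) rose and 10 (6.29%) fell, beside 10.7% and 4.78% of all genes. The median member stood at 0.02, close to that of all genes, and the members ranged from -1.30 to 1.05. The members that rose included sf3b1, clk4a, Clk4, Clk2, prpf39, SNRNP70, RBM39, RBM25 and 9 SR protein genes, and those that fell included 4 Sm core genes and both sf3a2 copies.

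**Figure D1:**
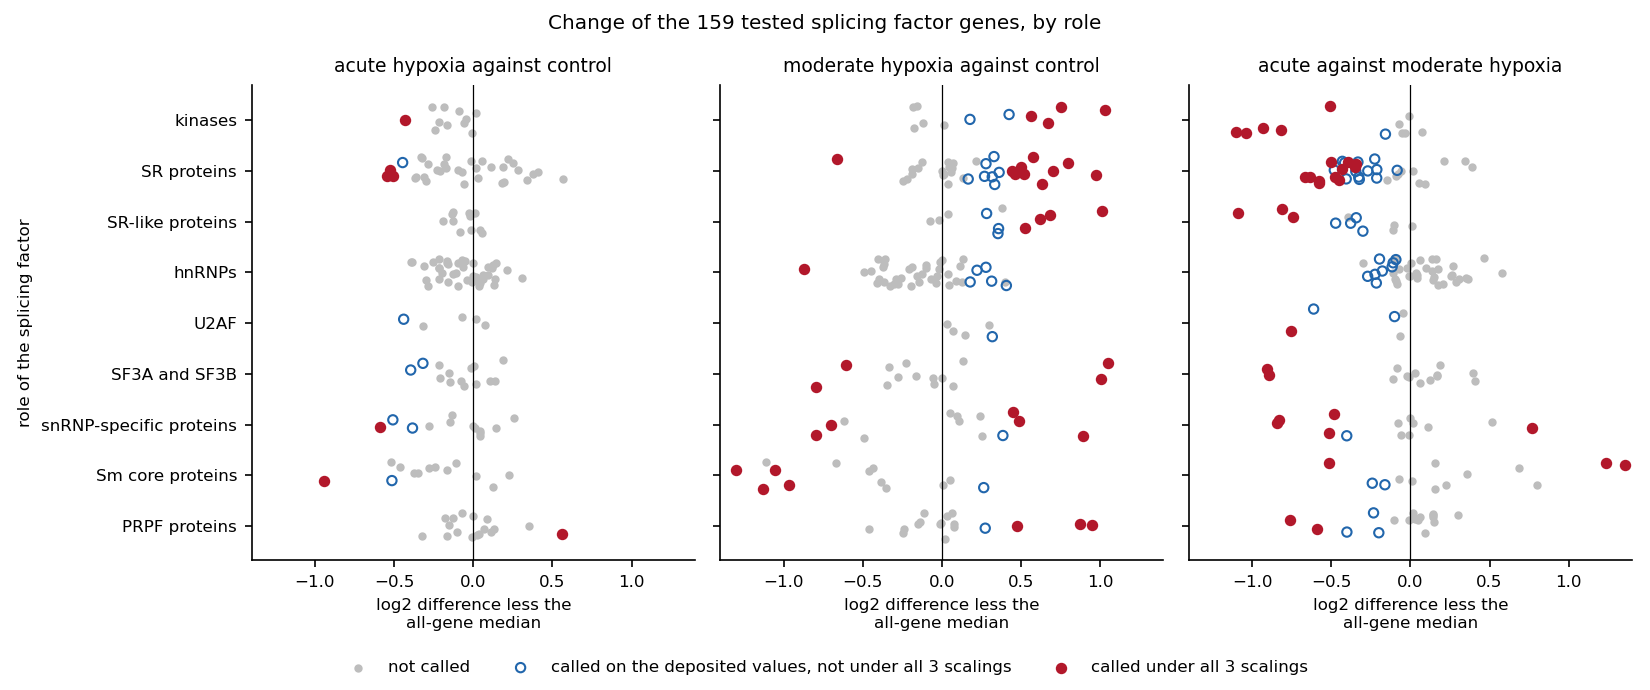
Change of each tested splicing factor gene (point) by role, as the log2 difference of log2(FPKM + 0.5) less the all-gene median, for acute hypoxia against control, moderate hypoxia against control and acute against moderate hypoxia. In moderate hypoxia the 11 SR-like proteins lie around a median of 0.36 and the 13 Sm core proteins around -0.46; vertical scatter within a role only separates points.

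By role, 9 of 34 tested SR protein genes, 4 of 11 kinase genes, 4 of 11 SR-like genes (rbm25, rbm39, tra2, luc7l), 3 of 17 PRPF genes, 3 of 13 snRNP-specific genes and 2 of 14 SF3 genes rose in moderate hypoxia under all 3 scalings. None of 41 hnRNP, 13 Sm core and 5 U2AF genes did, although 8 hnRNP genes had an unadjusted limma p under 0.05 in this direction on the deposited values and 2 after median-of-ratios scaling. The share of all genes at that unadjusted threshold was not computed. In the other direction, 4 of 13 Sm core genes, 2 of 13 snRNP-specific genes, 2 of 14 SF3 genes, 1 of 34 SR protein genes and 1 of 41 hnRNP genes fell. Of all tested genes, 10.7% were called higher and 4.78% lower under all 3 scalings, and the counts of several roles lie near these shares. The scaling moved the hnRNP and Sm core calls along with those of all genes. Of the hnRNP genes 5 were called higher and 1 lower on the deposited values, while after median-of-ratios scaling 0 were higher and 11 lower. Of the Sm core genes 1 was higher and 4 lower on the deposited values, and 0 higher and 8 lower after that scaling. For all tested genes the shares higher and lower were 24.3% and 5.02% on the deposited values, and 11.4% and 15.3% after that scaling. Differences between roles were not tested.

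The CLK kinases phosphorylate SR proteins in the nucleus and thereby release them from storage speckles. All 5 CLK genes above the filter were called higher in moderate hypoxia on the deposited values, beside 24.3% of all tested genes. Of these, clk2a passed the filter through its moderate hypoxia libraries, so its place in that count is not independent of its level there. Clk2 had 1.03, 0.968 and 1.03 FPKM in acute hypoxia, 2.88, 3.32 and 3.54 FPKM in moderate hypoxia and 1.49, 1.67 and 1.65 FPKM in control. The 3 groups did not overlap, with moderate hypoxia highest and acute hypoxia lowest. Clk2 thus differed from control by 0.67 ± 0.108 in moderate hypoxia (adjusted p = 0.000531), and by -0.43 ± 0.108 in acute hypoxia (adjusted p = 0.0216). The difference of acute from moderate hypoxia was -1.10 ± 0.108 (adjusted p = 7.63e-05). With a library of these groups left out, the acute call was kept in 1 of 6 fits, while the difference ran from -0.46 to -0.40. Whether a single library or the smaller number of libraries ended the calls was not tested. Over all alternatives the adjusted p of the acute call ran from 0.0150 to 0.0749, the highest without acute hypoxia replicate 2.

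Its paralog clk2a had 0.842, 0.646 and 0.746 FPKM in acute hypoxia, 2.16, 2.43 and 1.56 FPKM in moderate hypoxia and 1.13, 0.980 and 0.997 FPKM in control. The order of the groups was the same as for Clk2, again without overlap. With means of 0.745 FPKM in acute hypoxia and 1.04 FPKM in control, clk2a passed the filter of 1 FPKM through its moderate hypoxia libraries. It rose by 0.56 ± 0.144 in moderate hypoxia (adjusted p = 0.00458), and its difference of -0.26 ± 0.144 in acute hypoxia did not pass the test (adjusted p = 0.240). A further pair of CLK2 genes was at 0 or below 0.1 FPKM in every library.

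The clk4a gene had 2.22, 2.96 and 2.995 FPKM in acute hypoxia, 8.24, 6.20 and 6.93 FPKM in moderate hypoxia and 2.63, 2.79 and 3.06 FPKM in control. Only the moderate hypoxia libraries stood apart; acute hypoxia and control overlapped. It was 1.03 ± 0.135 higher in moderate hypoxia (adjusted p = 0.000277). Clk4, the most abundant kinase member, had 3.49, 3.99 and 2.94 FPKM in acute hypoxia, 9.15, 7.49 and 7.995 FPKM in moderate hypoxia and 4.73, 4.26 and 3.50 FPKM in control, a rise of 0.75 ± 0.137 in moderate hypoxia (adjusted p = 0.00106). The third gene, clk4b, was called higher on the deposited values (0.42 ± 0.125, adjusted p = 0.00653) and after median-of-ratios scaling, but not after quantile scaling, with adjusted p from 0.00514 to 0.0512 over the alternatives. In acute hypoxia against control none of the 3 clk4 genes passed the test, with differences of -0.18 to -0.01, and against moderate hypoxia all 3 fell (-1.04 to -0.51).

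**Figure D2:**
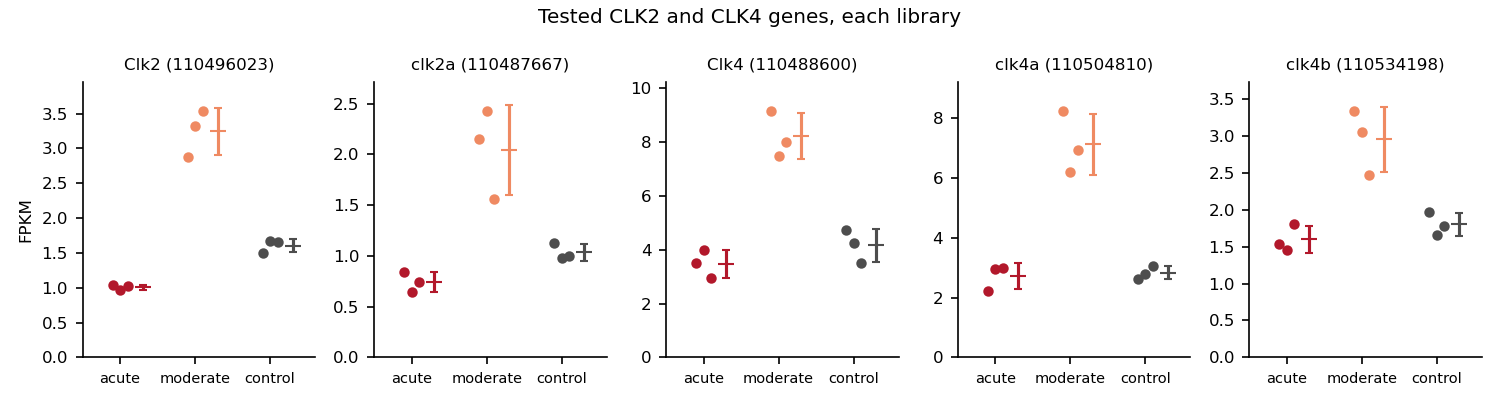
FPKM of the 5 tested CLK2 and CLK4 genes in each library (points), with the mean and SD of each group of 3 beside them; each panel has its own axis from 0. The moderate hypoxia libraries lie above those of acute hypoxia and control in every panel, and for Clk2 acute hypoxia also lies below control.

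The SRPK kinases, which phosphorylate SR proteins in the cytoplasm so that they enter the nucleus, were not called. None of the 4 tested srpk1 genes passed limma's test in any comparison, nor did any reach an unadjusted p under 0.05; in moderate hypoxia their differences ran from -0.18 to 0.01, and summed over the copies they had means of 4.38 FPKM in acute hypoxia, 5.44 FPKM in moderate hypoxia and 5.28 FPKM in control. Both srpk2 genes lay below the filter. Prpf4b, a kinase of the tri-snRNP, had 2 tested copies, of which one (ncbi_110535666) was called higher in moderate hypoxia on the deposited values only (0.18 ± 0.113, adjusted p = 0.0478). The CLK2 and SRPK1 families were not tested against each other.

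Among the SR proteins, SRSF7 (ncbi_110486080) had 2.08, 2.84 and 2.64 FPKM in acute hypoxia, 5.61, 3.28 and 3.70 FPKM in moderate hypoxia and 1.77, 1.43 and 1.60 FPKM in control. All 3 moderate hypoxia libraries exceeded all others, and the difference from control was 0.98 ± 0.174 (adjusted p = 0.00116). Of the other 5 tested srsf7 genes, none rose under all 3 scalings, and the most abundant (ncbi_110493794) stood at 0.06 in moderate hypoxia. Copies of SRSF7 thus covered a range of -0.22 to 0.98, and the family's summed FPKM averaged 42.4 in acute hypoxia, 63.5 in moderate hypoxia and 51.6 in control. That sum differed by 0.14 in moderate hypoxia (limma adjusted p = 0.0308) and was not called after median-of-ratios scaling (adjusted p = 0.71).

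SRSF6 (ncbi_110532062), an SR protein that binds purine-rich exon sequences, had 4.75, 5.07 and 5.31 FPKM in acute hypoxia, 9.89, 7.23 and 7.83 FPKM in moderate hypoxia and 3.44, 4.13 and 4.58 FPKM in control. It rose by 0.80 ± 0.134 in moderate hypoxia (adjusted p = 0.000764). The acute libraries also lay above control, by 0.34 ± 0.134, which did not pass the test (adjusted p = 0.226). Its copy with several times the level (ncbi_110492341) had 28.1, 30.6 and 28.3 FPKM in acute hypoxia, 29.4, 30.8 and 34.2 FPKM in moderate hypoxia and 22.4, 24.9 and 20.3 FPKM in control; both hypoxia groups lay above control without overlap, but neither call was made under all 3 scalings. It was called in moderate hypoxia on the deposited and quantile-scaled values, and in acute hypoxia after median-of-ratios and quantile scaling (adjusted p = 0.0333 and 0.0335) and not on the deposited values (adjusted p = 0.0561).

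SRSF11, an SR-related protein, had 3 of 4 copies that rose in moderate hypoxia, by 0.47 to 0.70, while the fourth stood at -0.19. SRSF5 (ncbi_110505971) and srsf5a rose by 0.57 ± 0.151 and 0.50 ± 0.104 (adjusted p = 0.00535 and 0.00139), and SRSF2 (ncbi_110499427), the classical speckle marker, by 0.45 ± 0.103 (adjusted p = 0.00201). SRSF10, known in mammals as a splicing repressor when dephosphorylated, was the only family with copies called in both directions. One copy (ncbi_110496687) had 2.83, 3.06 and 3.10 FPKM in acute hypoxia, 5.23, 4.42 and 4.26 FPKM in moderate hypoxia and 2.85, 2.79 and 1.87 FPKM in control, and rose by 0.63 ± 0.142 (adjusted p = 0.00265). Another (ncbi_110517101) had 1.59, 1.60 and 2.23 FPKM in acute hypoxia, 1.74, 1.41 and 1.62 FPKM in moderate hypoxia and 2.08, 2.27 and 3.14 FPKM in control, and fell by 0.66 ± 0.156 on the log2 scale in moderate hypoxia (adjusted p = 0.0317), a call kept in 2 of 6 fits with a library left out. The summed srsf10 genes averaged 10.3 FPKM in acute hypoxia, 12.1 FPKM in moderate hypoxia and 10.3 FPKM in control. That sum differed by 0.07 in moderate hypoxia and was not called (limma adjusted p = 0.125).

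Of the SR-like proteins, RBM39 (ncbi_110531957), which resembles U2AF and binds near the branch point, had 1.23, 1.35 and 1.22 FPKM in acute hypoxia, 4.28, 3.50 and 3.77 FPKM in moderate hypoxia and 1.42, 1.72 and 1.20 FPKM in control. Moderate hypoxia stood clear of both other groups, which overlapped, and the gene rose by 1.01 ± 0.124 (adjusted p = 0.000192). The other 3 tested RBM39 copies stood between -0.07 and 0.28 and did not rise under all 3 scalings. RBM25, which stimulates U1-dependent splice site choice, rose in both tested copies: ncbi_110522557 had 2.09, 2.101 and 1.69 FPKM in acute hypoxia, 5.11, 4.41 and 3.97 FPKM in moderate hypoxia and 2.16, 2.52 and 2.18 FPKM in control (0.68 ± 0.122, adjusted p = 0.000907), and the other copy differed by 0.53 ± 0.162 (adjusted p = 0.00992). TRA2B (ncbi_110495758), an exon-inclusion factor, rose by 0.62 ± 0.181 (adjusted p = 0.00934).

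Among the proteins of the snRNPs, SF3B1, the large SF3B subunit that clamps the branch point helix, had the highest relative increase of any member in moderate hypoxia against control. The sf3b1 copy had 7.72, 8.94 and 8.59 FPKM in acute hypoxia, 21.1, 17.4 and 17.98 FPKM in moderate hypoxia and 7.76, 8.38 and 7.45 FPKM in control. The SF3B1 copy had 5.85, 5.83 and 5.82 FPKM in acute hypoxia, 14.9, 11.6 and 12.9 FPKM in moderate hypoxia and 5.39, 6.12 and 5.26 FPKM in control. Both copies were at more than 2-fold the control mean in moderate hypoxia (2.39 and 2.35 times), with acute hypoxia within or close to the control range. In moderate hypoxia the relative differences were 1.05 ± 0.106 (adjusted p = 9.54e-05) and 1.01 ± 0.109 (adjusted p = 0.000118).

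SF3A2, a subunit of the neighbouring SF3A complex, fell in both copies. Its SF3A2 copy had 1.24, 1.07 and 1.24 FPKM in acute hypoxia, 0.900, 0.956 and 1.04 FPKM in moderate hypoxia and 1.52, 1.95 and 1.91 FPKM in control. Both hypoxia groups lay below control, and the difference was -0.80 ± 0.120 in moderate hypoxia (adjusted p = 0.00309). The sf3a2 copy, at 4.04, 2.94 and 3.66 FPKM in moderate hypoxia against 4.44, 5.60 and 4.99 FPKM in control, differed by -0.60 ± 0.132 (adjusted p = 0.0263); leaving out a library ended that call in 3 of 6 fits.

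SNRNP70, the U1 protein that contacts SR proteins at the start of an intron, had 3.23, 3.58 and 3.19 FPKM in acute hypoxia, 8.88, 7.19 and 6.42 FPKM in moderate hypoxia and 3.30, 3.17 and 3.58 FPKM in control. Acute hypoxia and control were interleaved and moderate hypoxia lay above both (0.89 ± 0.122, adjusted p = 0.000320). Its copy snrnp70 rose by 0.49 ± 0.115 (adjusted p = 0.00255). Another U1 component, PRPF39, helps U1 to bind and has 3 tested copies. One prpf39 copy (ncbi_110522470) had 4.15, 5.06 and 4.32 FPKM in acute hypoxia, 9.27, 7.64 and 7.72 FPKM in moderate hypoxia and 3.48, 4.12 and 3.09 FPKM in control, a rise of 0.95 ± 0.128 in moderate hypoxia (adjusted p = 0.000309). The second rose by 0.87 ± 0.124 (adjusted p = 0.000353), while PRPF39 (ncbi_110504661) stood at -0.01.

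The abundant U2 A′ gene (ncbi_110500625) had 37.9, 39.9 and 44.3 FPKM in acute hypoxia, 80.2, 84.8 and 86.9 FPKM in moderate hypoxia and 52.7, 60.3 and 52.3 FPKM in control. The groups were fully separated, in the same order as for Clk2. It rose by 0.45 ± 0.0953 in moderate hypoxia (adjusted p = 0.00129). In acute hypoxia the difference of -0.38 ± 0.0953 was called on the deposited values (adjusted p = 0.0197) and not after median-of-ratios scaling, and its adjusted p ran from 0.0133 to 0.0689 over the alternatives. The gene was grouped with the SNRPA1 genes, and the 3 tested copies ranged from -0.49 to 0.45 in moderate hypoxia. One SNRPA1 copy (ncbi_110506916) was called lower in acute hypoxia on the deposited values (-0.51 ± 0.141, adjusted p = 0.0358), but not after quantile scaling. U2AF1 (ncbi_110527293), the small U2AF subunit that reads the AG at the end of an intron, had 1.502, 1.82 and 1.45 FPKM in acute hypoxia, 3.47, 4.06 and 3.19 FPKM in moderate hypoxia and 2.64, 2.33 and 2.31 FPKM in control. On the deposited values it was lower in acute hypoxia (-0.44 ± 0.119, adjusted p = 0.0311) and higher in moderate hypoxia (0.32 ± 0.119, adjusted p = 0.0132), and neither call was kept after median-of-ratios scaling.

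**Figure D3:**
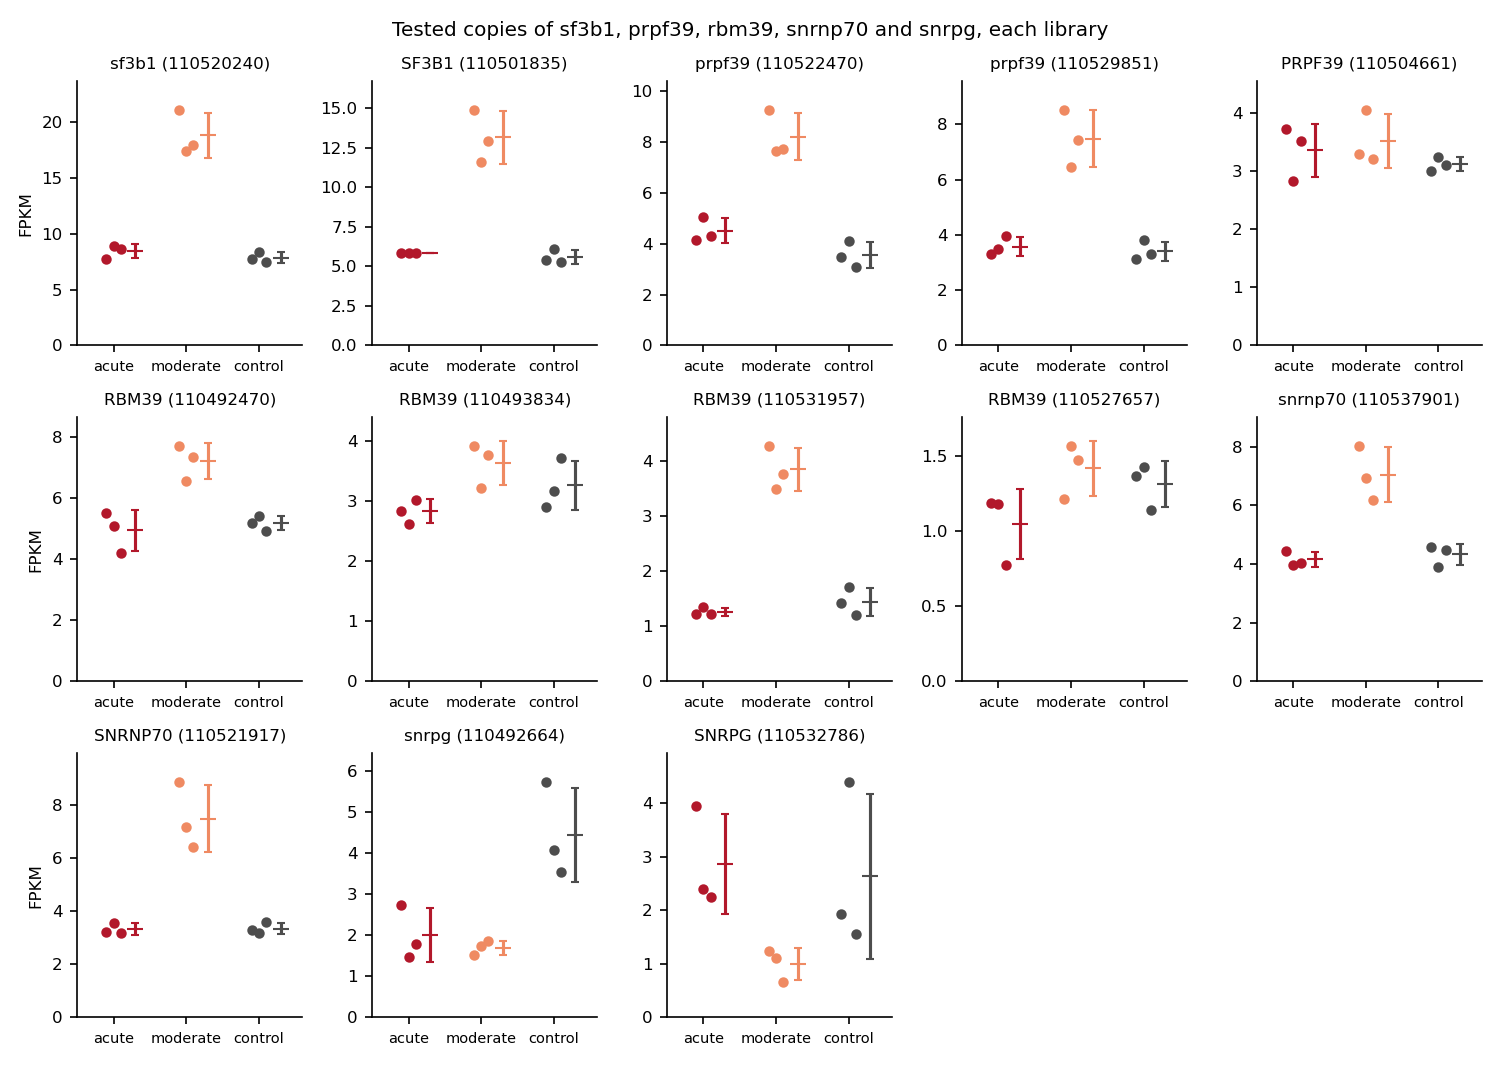
FPKM in each library (points) of the 13 tested copies of sf3b1, prpf39, rbm39, snrnp70 and snrpg, with the mean and SD of each group of 3; each panel has its own axis from 0. Both sf3b1 copies, 2 of 3 prpf39 copies and both snrnp70 copies stand higher in moderate hypoxia than in acute hypoxia and control, while both snrpg copies stand lower in moderate hypoxia than in control.

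Of the 13 tested Sm core genes 4 fell in moderate hypoxia. The snrpg copy, encoding SmG of the Sm ring, had 2.73, 1.47 and 1.78 FPKM in acute hypoxia, 1.51, 1.73 and 1.85 FPKM in moderate hypoxia and 5.73, 4.07 and 3.53 FPKM in control. Both hypoxia groups lay below all controls, by -1.30 ± 0.197 in moderate hypoxia (adjusted p = 0.00204) and -0.95 ± 0.197 in acute hypoxia (adjusted p = 0.0121). Leaving out control replicate 1 ended the acute call (adjusted p = 0.0531), and over all alternatives its adjusted p ran from 0.00464 to that value. The SNRPG copy had 3.95, 2.40 and 2.26 FPKM in acute hypoxia, 1.23, 1.10 and 0.671 FPKM in moderate hypoxia and 1.94, 4.41 and 1.56 FPKM in control, and was lower in moderate hypoxia by -1.13 ± 0.301 (adjusted p = 0.0325).

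SNRPD1 (ncbi_110487904) and SNRPF (ncbi_110525078), further ring members, differed by -1.05 ± 0.253 and -0.96 ± 0.235 in moderate hypoxia (adjusted p = 0.0221 and 0.0251). Some of these calls were lost when a library was left out. Of the 10 members that fell in moderate hypoxia, 4 kept the call in all 6 such fits (snrpg, SF3A2, SNRPB2 and Hnrnpab). The number of members lower was 4 without moderate hypoxia replicate 2 and 6 without replicate 3. All 25 members that rose kept their calls in all 6 such fits. These fits used the deposited scaling only, under which 24.3% of all tested genes were called higher and 5.02% lower. The 2 directions are therefore not on an equal footing here, and the share of all called genes that kept a call is not given. SNRPB2, the U2 protein B″, differed by -0.79 ± 0.151 (adjusted p = 0.00980) and SNRNP40, a U5 protein, by -0.70 ± 0.144 (adjusted p = 0.0166). The most abundant Sm gene, snrpb, had 25.8, 20.8 and 26.7 FPKM in acute hypoxia, 35.7, 29.4 and 29.7 FPKM in moderate hypoxia and 27.4, 28.2 and 26.0 FPKM in control, and was not called against control in either hypoxia group.

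The hnRNPs, which bind nascent transcripts and often silence splice sites, changed in 1 of 41 tested genes under all 3 scalings. HNRNPL (ncbi_110507580) had 35.5, 32.9 and 35.5 FPKM in acute hypoxia, 37.8, 33.6 and 37.9 FPKM in moderate hypoxia and 37.2, 35.0 and 33.0 FPKM in control, and the groups overlapped. The 41 tested hnRNP genes had a median of -0.13 in moderate hypoxia and -0.07 in acute hypoxia. Hnrnpab (ncbi_110537820) was the member that fell: it had 2.01, 2.095 and 1.63 FPKM in acute hypoxia, 1.92, 1.21 and 1.06 FPKM in moderate hypoxia and 2.61, 3.05 and 2.08 FPKM in control, a difference of -0.87 ± 0.178 in moderate hypoxia (adjusted p = 0.0126). Its 3 other copies stood between -0.44 and -0.30 and were not called on the deposited values. After median-of-ratios scaling 0 of the 41 hnRNP genes were higher and 11 lower, beside 11.4% and 15.3% of all genes. Both HNRNPDL copies were called higher on the deposited values only, by 0.28 and 0.41.

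**Figure D4:**
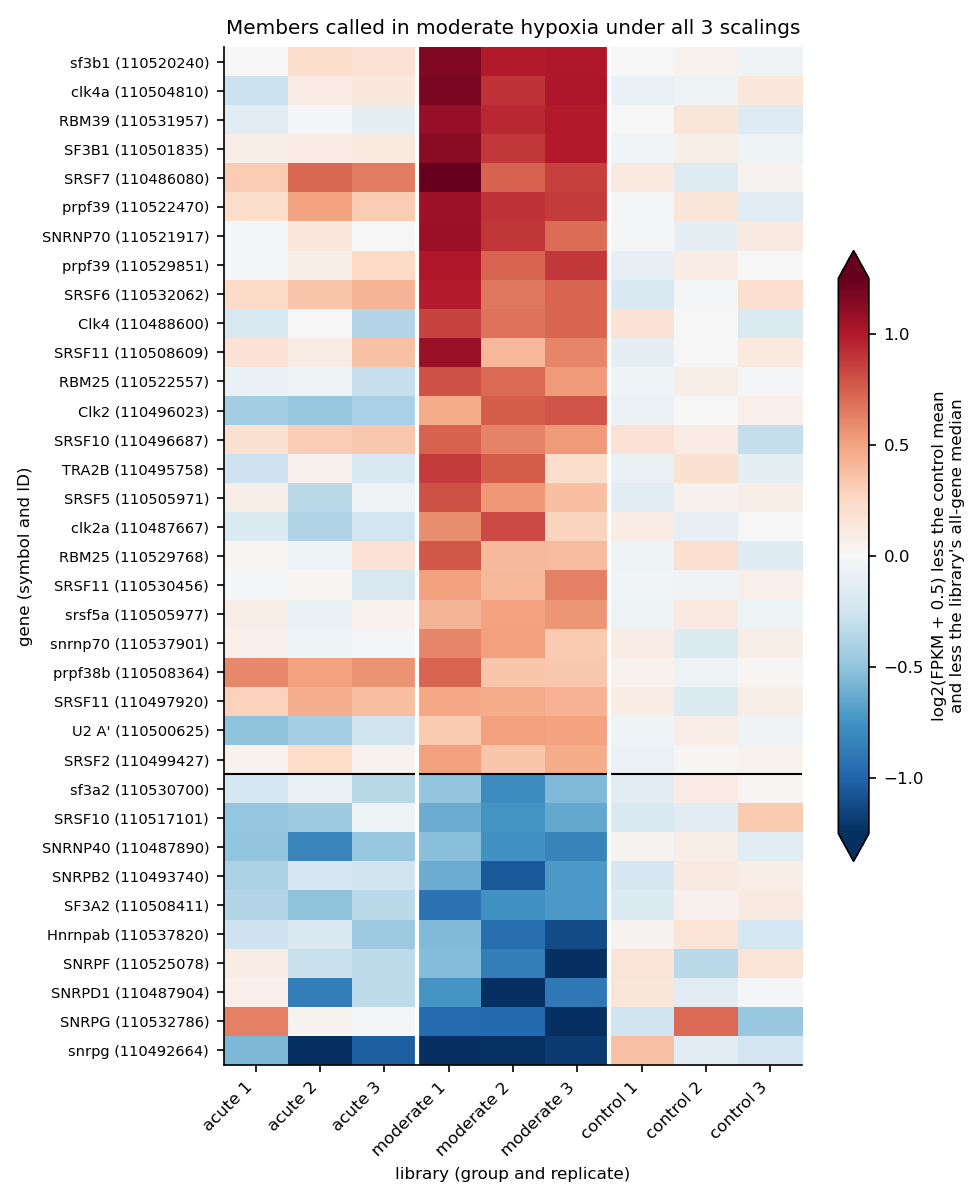
The 35 members called in moderate hypoxia against control under all 3 scalings (rows; 25 higher above the line, 10 lower below it) in the 9 libraries (columns); colour is log2(FPKM + 0.5) less the control mean and less the library's all-gene median, with values past the scale drawn in its end colours. Moderate hypoxia is red for the upper rows and blue for the lower rows. Acute hypoxia is mixed in the upper rows, where Clk2, the U2 A′ gene and clk2a are among those that are blue. Of the lower rows, Hnrnpab, snrpg, sf3a2, SNRNP40, SF3A2, SNRPB2 and SRSF10 are negative in every acute hypoxia library, while SNRPD1, SNRPG and SNRPF are not.

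The same question was then asked of acute hypoxia against control. Here 1 member (0.629%) was higher and 13 (8.18%) lower on the deposited values, beside 3.08% and 4.71% of all tested genes. After median-of-ratios scaling 3 members were higher and 7 lower, beside 4.22% and 3.85%, and the same numbers were called after quantile scaling, beside 4.24% and 3.75%. Under all 3 scalings 1 member rose and 6 fell, beside 3.05% and 3.62%. The median member stood at -0.07. Fewer members were lower in each fit with a library left out, and such a fit also has fewer libraries. The number was 2 without control replicate 1, 4 without control replicate 2 or acute hypoxia replicate 1, and 5 without acute hypoxia replicate 2. It was 6 without control replicate 3 and 9 without acute hypoxia replicate 3.

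SRSF3 and srsf9 were the acute calls kept in all 6 such fits. SRSF3 (ncbi_110494100), a small SR protein also active in mRNA export, had 7.16, 5.91 and 6.04 FPKM in acute hypoxia, 10.6, 9.95 and 9.18 FPKM in moderate hypoxia and 9.61, 10.3 and 9.19 FPKM in control. Acute hypoxia lay below both other groups, which overlapped, and fell by 0.53 ± 0.105 on the log2 scale against control (adjusted p = 0.00831). The srsf9 gene (ncbi_110523758) had 2.91, 2.71 and 2.65 FPKM in acute hypoxia, 5.08, 3.80 and 4.08 FPKM in moderate hypoxia and 4.41, 4.65 and 4.17 FPKM in control, a difference of -0.54 ± 0.115 in acute hypoxia (adjusted p = 0.0111). Neither gene was called in moderate hypoxia.

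The other members that fell in acute hypoxia were Clk2 and snrpg, given above, SNRNP40 (-0.59 ± 0.144, adjusted p = 0.0219) and SRSF5 (ncbi_110529302; -0.51 ± 0.141, adjusted p = 0.0364). With a library left out, the SNRNP40 call was kept in 3 of 6 fits and the SRSF5 call in 0 of 6, with an adjusted p of up to 0.114. Among the members called lower on the deposited values only were SRSF7 (ncbi_110493794; -0.45 ± 0.116, adjusted p = 0.0268) and snrpe (ncbi_110528042; -0.51 ± 0.136, adjusted p = 0.0297). Others were sf3b6 (-0.32 ± 0.0988, adjusted p = 0.0471) and SF3A2 (ncbi_110508411; -0.40 ± 0.120, adjusted p = 0.0472). SNRNP40 had 2.32, 1.70 and 2.27 FPKM in acute hypoxia, 2.75, 2.07 and 2.003 FPKM in moderate hypoxia and 3.59, 3.90 and 3.10 FPKM in control, so both hypoxia groups lay below control. The single member that rose was prpf38b (ncbi_110508364), a PRPF gene, with 2.79, 2.53 and 2.63 FPKM in acute hypoxia, 3.73, 2.51 and 2.58 FPKM in moderate hypoxia and 1.75, 1.68 and 1.68 FPKM in control. It was called in both hypoxia groups, by 0.56 ± 0.133 in acute hypoxia (adjusted p = 0.0392) and 0.47 ± 0.133 in moderate hypoxia (adjusted p = 0.00598), although the acute call was lost in each of the 6 fits with a library left out. Both comparisons use the same 3 control libraries.

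Acute and moderate hypoxia were then set against each other. On the deposited values 3 members (1.89%) were higher and 63 (39.6%) lower in acute hypoxia, beside 4.3% and 28.1% of all tested genes; under all 3 scalings 3 were higher and 29 (18.2%) fell, beside 4.13% and 9.2%. After median-of-ratios scaling the split was 14 higher and 30 lower, beside 14.6% and 9.88%, and after quantile scaling 12 higher and 31 lower, beside 10.1% and 11.2%. The members with the smallest p were Clk2, the U2 A′ gene (-0.83 ± 0.0953, adjusted p = 0.000108), RBM39 (ncbi_110531957; -1.09 ± 0.124, adjusted p = 0.000123) and sf3b1 (-0.91 ± 0.106, adjusted p = 0.000123). All 5 tested CLK genes fell (clk2a passed the filter through its moderate hypoxia libraries), as did 11 of 34 SR protein genes and 0 of 41 hnRNP genes. On the deposited values 24 SR protein genes and 8 hnRNP genes were called lower, beside 28.1% of all genes. After median-of-ratios scaling 1 SR protein gene was higher and 11 lower, and 5 hnRNP genes were higher and 0 lower, beside 14.6% and 9.88%. At an unadjusted limma p under 0.05, 11 hnRNP genes were lower on the deposited values. After median-of-ratios scaling 0 were lower and 10 higher at that threshold. No share of all genes was computed at that unadjusted threshold. The 3 members that were higher in acute hypoxia were SNRPG (1.36 ± 0.301, adjusted p = 0.0149), snrpd1 (1.24 ± 0.349, adjusted p = 0.0430) and snrnp27 (0.77 ± 0.168, adjusted p = 0.0269), whose calls were kept in 4, 2 and 3 of 6 fits with a library left out. This comparison shares the moderate hypoxia libraries with that of moderate hypoxia against control.

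Copies of a family were also counted together, although no difference between copies was tested. Among 52 families with at least 2 tested copies, every tested copy was called higher in moderate hypoxia on the deposited values in 7. These were clk2, clk4, hnrnpdl, rbm25, sf3b1, snrnp70 and srsf6, where clk2a of the clk2 family passed the filter through its moderate hypoxia libraries. Some but not all tested copies were called higher in 18 families and none in 27, and every tested copy was called lower in 2 (sf3a2 and snrpg). Of all tested genes, 24.3% were called higher and 5.02% lower on the same values. These are shares of single genes, and the matching share of families over all genes was not computed. When copies were summed before the fit, 23 of 71 tested families were higher and 5 lower in moderate hypoxia on the deposited values, beside 24.3% and 5.02% of all rows of that fit. After median-of-ratios scaling 12 were higher and 15 lower, beside 11.3% and 15.2%. The summed clk4 genes averaged 7.79 FPKM in acute hypoxia, 18.3 FPKM in moderate hypoxia and 8.79 FPKM in control, and the summed clk2 genes 1.76, 5.31 and 2.64 FPKM in the same groups. In moderate hypoxia these sums differed by 0.86 and 0.73 (limma adjusted p = 0.000194 and 0.000252). The summed sf3b1 genes averaged 14.3 FPKM in acute hypoxia, 32.0 FPKM in moderate hypoxia and 13.5 FPKM in control, and differed by 1.06 in moderate hypoxia (adjusted p = 8.65e-05).

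**Figure D5:**
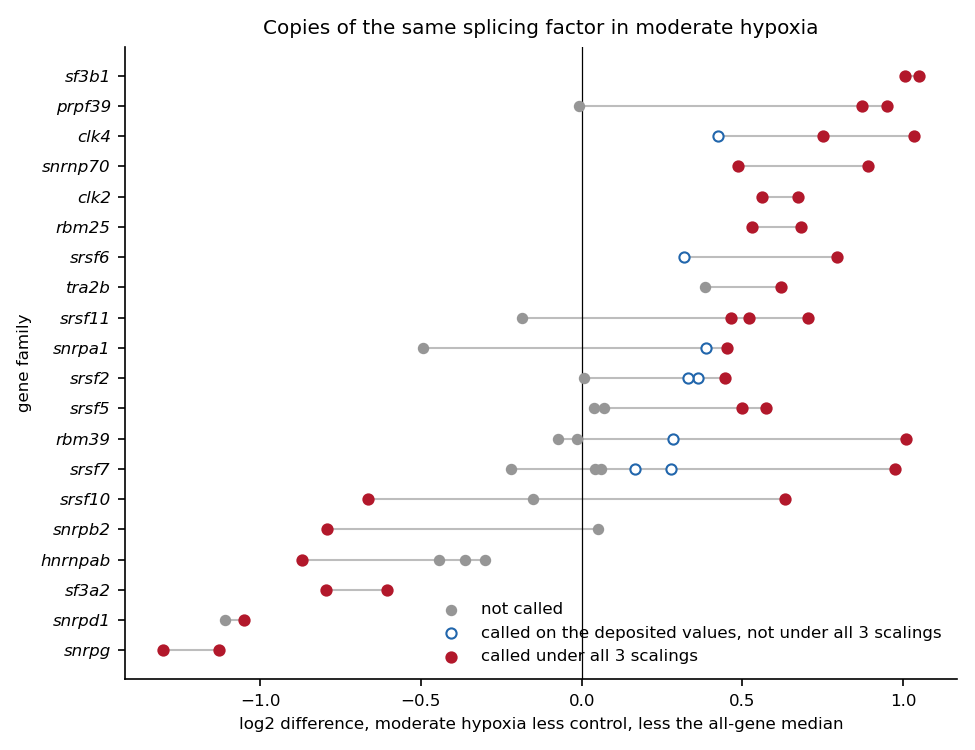
Copies (points) of the 20 families with at least 2 tested copies and at least 1 called under all 3 scalings in moderate hypoxia against control; the axis is the log2 difference less the all-gene median, and a line joins the copies of a family. The sf3b1 copies lie together at 1.01 and 1.05, while the srsf7 copies spread from -0.22 to 0.98 and the srsf10 copies from -0.66 to 0.63.

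Several members are neighbours in the RefSeq gene table, in which all 202 were found: 15 pairs have at most 5 genes between them and 8 pairs none. Of the 5 tested CLK genes, 4 have an hnRNP gene nearby with at most 3 genes between them. Clk4 and clk4a each have an Hnrnpab copy nearby with 3 genes between, which stood at -0.36 and -0.44 in moderate hypoxia, against 0.75 and 1.03 for the kinases. Clk2 and clk2a have an HNRNPR copy nearby with 1 and 2 genes between, at -0.36 and -0.01, against 0.67 and 0.56. Srsf7 and hnrnpl genes also lie next to each other repeatedly. Of the members called under all 3 scalings in a hypoxia group, 5 overlap another gene in that table, among them sf3b1 and SNRNP70, which host snoRNA genes; strand-specific counting is not stated in the sources used here.

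Splicing genes outside the naming rule were counted from a list of splicing regulators, helicases and assembly factors. Of 301 matched genes 213 were tested; on the deposited values 60 (28.2%) were higher and 6 (2.82%) lower in moderate hypoxia, beside 24.3% and 5.02% of all tested genes. After median-of-ratios scaling 33 (15.5%) were higher and 38 (17.8%) lower, beside 11.4% and 15.3%, and under all 3 scalings 32 (15.0%) and 6 (2.82%), beside 10.7% and 4.78%. The most significant were 3 copies of RBM5, which acts at the 3′ splice site, and PLRG1, a core protein of the activated spliceosome. RBM5 (ncbi_110527781) averaged 4.37 ± 0.118 FPKM in acute hypoxia, 10.5 ± 0.682 FPKM in moderate hypoxia and 3.50 ± 0.0337 FPKM in control, and rose by 1.30 in moderate hypoxia (adjusted p = 1.67e-05). PLRG1 averaged 6.44 ± 0.254 FPKM in acute hypoxia, 19.0 ± 2.75 FPKM in moderate hypoxia and 6.67 ± 0.598 FPKM in control (SD, n = 3 each), and rose by 1.28 (adjusted p = 6.34e-05). Lower in moderate hypoxia were cirbpb, a cold-inducible RNA-binding protein (-0.61), MATR3 (-0.62), lsm3 (-0.83) and LSM5 (-0.65), the last 2 of them Sm-like proteins. In acute hypoxia 0 genes of the list were higher and 6 (2.82%) lower, beside 3.08% and 4.71% of all genes. Leading were cirbpb, LSM5, WDR77 and RBMX2. After median-of-ratios scaling 2 (0.939%) were higher and 4 (1.88%) lower, beside 4.22% and 3.85% of all genes. At an unadjusted limma p under 0.05 on the deposited values the numbers were 5 and 39. The share of all genes at that threshold was not computed. Against moderate hypoxia, acute hypoxia had 2 higher (Sart1 and PPP1R8) and 72 (33.8%) lower, led by RBM5, PLRG1 and srrm1, beside 4.3% and 28.1% of all genes; under all 3 scalings 35 (16.4%) were lower, beside 9.2%.

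Liver identity and cell mixture were followed with marker lists, with calls on the deposited values unless stated. There 24.3% of all tested genes were higher and 5.02% lower in moderate hypoxia, and 3.08% and 4.71% in acute hypoxia. Under all 3 scalings these shares were 10.7% and 4.78% in moderate hypoxia and 3.05% and 3.62% in acute hypoxia. For acute against moderate hypoxia they were 4.13% and 9.2% under all 3 scalings. Hepatocyte markers were high throughout, with sums of 75940 to 79680 FPKM in acute hypoxia, 67490 to 74280 FPKM in moderate hypoxia and 69370 to 74760 FPKM in control. All acute hypoxia sums lay above those of both other groups. Of 23 tested hepatocyte genes, 1 was higher and 3 lower in moderate hypoxia, and 1 was lower under all 3 scalings. After median-of-ratios scaling 0 were higher and 9 lower, beside 11.4% and 15.3% of all genes. Against moderate hypoxia, 6 were higher and 0 lower in acute hypoxia, beside 4.3% and 28.1% of all genes. Under all 3 scalings 2 of them were higher. Against control, 1 was higher and 0 lower in acute hypoxia. Endothelial markers summed to 21.9 to 22.6 FPKM in acute hypoxia, 26.9 to 31.4 FPKM in moderate hypoxia and 21.1 to 22.2 FPKM in control, and none of their 14 genes was at 0 in all libraries. In moderate hypoxia 4 of the 9 tested endothelial genes were higher and 0 lower, and 2 were higher under all 3 scalings. Stellate cell and fibroblast markers, 3 of 24 at 0 in all libraries, summed to 87.4 to 138 FPKM in acute hypoxia, 108 to 142 FPKM in moderate hypoxia and 73.0 to 93.0 FPKM in control. Of their 12 tested genes 3 were higher in moderate hypoxia on the deposited values, near the share of all genes, and 0 after median-of-ratios scaling.

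The sums of 3 further lists lay below control, without overlap, in at least 1 hypoxia group. Macrophage markers, 2 of 21 at 0 in all libraries, summed to 1311 to 2459 FPKM in acute hypoxia, 1361 to 1476 FPKM in moderate hypoxia and 2080 to 2251 FPKM in control. Moderate hypoxia did not overlap control, and 1 of the 8 tested macrophage genes was lower there on the deposited values and 0 under all 3 scalings. After median-of-ratios scaling 3 of the 8 were lower in moderate hypoxia, beside 15.3% of all genes. In acute hypoxia 1 of the 8 was lower under all 3 scalings, beside 3.62% of all genes. Lymphocyte markers, none of 10 at 0 in all libraries, summed to 3.21 to 5.03 FPKM in acute hypoxia, 4.57 to 5.57 FPKM in moderate hypoxia and 5.49 to 7.80 FPKM in control, and 1 of 2 tested genes was lower in acute hypoxia under all 3 scalings. That share was 3.62% of all genes. In moderate hypoxia 0 of the 2 lymphocyte genes were lower on the deposited values. Both 2 were lower after median-of-ratios and after quantile scaling, beside 15.3% and 10.7% of all genes. Proliferation markers, 1 of 13 at 0 in all libraries, summed to 10.5 to 13.3 FPKM in acute hypoxia, 11.3 to 12.3 FPKM in moderate hypoxia and 14.8 to 21.6 FPKM in control, with 0 of 2 tested genes called on the deposited values in either hypoxia group. The sums of red cell, granulocyte, bile duct and exocrine pancreas markers overlapped between each hypoxia group and control. The part of these cells in the splicing factor results was not tested.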

How the data were processed

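Total RNA of trout liver was sequenced in 3 libraries per group. Per the file headers, the deposited values are FPKM for each gene, in 3 stacked tables of 2 groups each. Per the submitters' processing notes the tools included TopHat2 2.1.1 and Bowtie2 2.2.8. The build, the way reads were counted and how reads shared by copies were treated are not given in the sources used here. Acute hypoxia was taken from the table that pairs it with moderate hypoxia, and the other groups from the table of moderate hypoxia with control. Moderate values are identical in both. The table of acute hypoxia with control is another quantification and served as an alternative.

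Genes averaging 1 FPKM or more were fitted on log2(FPKM + 0.5) with limma 3.58.1 in R 4.3.3 (mean trend, all 3 groups, no covariate), after a test on simulated data. The 0.5 understates changes of low genes. Median-of-ratios and quantile scaling were computed from the FPKM values. The members, roles and lists were chosen with earlier results of these data known. Values are printed for the clk and srpk genes and for the most abundant member of a role. In each comparison they are printed for some, not all, of the 12 members with the smallest p per direction past the test. The rule also covers copies of these and the other splicing genes with the 4 smallest p per direction. The members Prpf4b and HNRNPDL, the srsf10, srsf11, Hnrnpab, HNRNPR, prpf39 and rbm25 copies outside that rule, TRA2B, SRSF2, SRSF5 and snrnp27 were added where a count of a family or role turned on them, chosen after their values were seen. Symbols were matched to an annotation table of the assembly USDA_OmykA_1.1, used for names and neighbours only. Alternatives were other pseudocounts, filters, scalings and limma settings, a replicate block, the second quantification and leave-one-out fits; calls under all 3 scalings and family sums were added after seeing the data. Relative depth was read from the steps between low values, scaled to control replicate 1.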

Additional observations from a re-analysis of the deposited data

Results flagged for a closer look

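Members called in opposite directions from control in the 2 hypoxia groups on the deposited values are listed here. The test of acute against moderate hypoxia is given with each. Clk2 differed by -1.10 between acute and moderate hypoxia (adjusted p = 7.63e-05, limma), and its opposite calls were made under all 3 scalings. The U2 A′ gene (ncbi_110500625) differed by -0.83 (adjusted p = 0.000108), but its call in acute hypoxia was not made after median-of-ratios scaling. U2AF1 (ncbi_110527293) differed by -0.75 (adjusted p = 0.000365), and its calls against control were made on the deposited values only. With a library left out, the acute calls of Clk2, the U2 A′ gene and U2AF1 against control were kept in 1, 2 and 1 of 6 fits. In all 3 genes every acute library lay below, and every moderate library above, every control library. The genes were selected by their opposite calls, so this separation follows largely from the selection. The share of all tested genes with such opposite calls is not given here.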

How the results depend on the processing

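The main numbers were 1 higher and 13 lower in acute hypoxia, 46 and 10 in moderate hypoxia, and 3 and 63 in acute against moderate hypoxia. These came from 159 tested members. Without a filter on low values 199 members were tested, and the numbers were 0 and 4 in acute hypoxia, with 5 lower in moderate hypoxia and 1 higher in acute against moderate hypoxia. With a filter of 5 FPKM only 47 members were tested. Of these, 5 were lower in acute hypoxia, 18 higher and 0 lower in moderate hypoxia, and 1 and 23 in acute against moderate hypoxia. Counts under different filters are therefore not shares of the same number of members, and the shares of all genes under these filters are not given. Median-of-ratios scaling gave 3 and 7, 26 and 29, and 14 and 30 in the same order of comparisons. Quantile scaling gave 3 and 7, 26 and 21, and 12 and 31. Called under all 3 scalings were 6 lower in acute hypoxia, 25 higher in moderate hypoxia and 29 lower in acute against moderate hypoxia. The relative median of the members was 0.119 without a filter and 0.146 with the higher filter in moderate hypoxia, and -0.180 and -0.176 in acute against moderate hypoxia; apart from the numbers of genes tested, the cause was not tested. With each library left out, members higher ranged from 0 to 1, 30 to 41 and 0 to 5, members lower from 2 to 9, 4 to 11 and 44 to 60, and the relative median from -0.118 to -0.0506, -0.0103 to 0.0449 and -0.101 to -0.0469, for acute hypoxia, moderate hypoxia and acute against moderate hypoxia. The 30 was reached without moderate hypoxia replicate 1.

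Whether replicate numbers pair the libraries is not stated in the sources used here. Deviations of same-numbered libraries correlated at -0.131 to 0.0806, which with 3 libraries a group cannot settle it. A replicate block gave 1 and 9, 41 and 9, and 5 and 58. Some uncalled kinase genes changed sign near 0. In acute hypoxia clk4a was at 0.0175 in the other quantification and -0.0806 to 0.119 with a library left out, Srpk1 (ncbi_110532780) at -0.133 to 0.0188 and SRPK1 (ncbi_110494755) at -0.135 to 0.0027. In moderate hypoxia the same SRPK1 gene was at -0.0057 with a pseudocount of 1, -0.0221 after quantile scaling and -0.0630 to 0.0768 with a library left out. In acute against moderate hypoxia Srpk1 (ncbi_110492651) was at 0.0009 with a pseudocount of 1 and -0.217 to 0.0933, Srpk1 (ncbi_110532780) at -0.0458 without a filter and -0.0086 to 0.139, and SRPK1 (ncbi_110527716) at -0.121 to 0.0796. No other direction of a clk or srpk gene changed, and no called member changed direction under an alternative that tested it; uncalled members of other families were not followed. Pseudocounts, limma without the trend and the compared groups alone kept all numbers within 1.5 times of the main ones. Depth in reads is unknown.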
